A study of Sus scrofa with 8 samples.

Results

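Matrix proteases and their inhibitors were examined in pig embryonic fibroblasts (PEFs) through the chromatin marks and the CTCF binding at their genes. The genes were chosen by name, with earlier results of these data known. They were the 61 protein-coding genes, of 19487 that RefSeq places on chromosomes 1 to 18 and X of Sscrofa11.1, whose symbol is MMP, ADAM, ADAMTS or TIMP followed by a number. There were 20 MMP, 18 ADAM, 19 ADAMTS and 4 TIMP genes. The cells were untreated fibroblasts of Large White pigs, taken from 35-day-old fetuses and released from the tissue with collagenase IV. ChIP-seq was carried out for H3K4me3, H3K27ac and CTCF with 2 replicates each, which gave 6 libraries, and the data are a list of peaks per library. The sources used here do not say whether the replicates came from separate cultures.

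Matrix metalloproteinases (MMPs) are zinc-dependent enzymes that cleave collagen, gelatin, elastin and other proteins of the extracellular matrix. ADAM proteins are membrane-anchored relatives, many of which release growth factors, cytokines and receptors from the cell surface. ADAMTS proteins are secreted and cut proteoglycans and procollagens, and TIMP proteins bind the active site of these enzymes and block it. Fibroblasts make and remodel much of the matrix of connective tissue. H3K4me3 is a histone mark of promoters, H3K27ac marks active promoters and enhancers, and CTCF is a DNA-binding protein found at chromatin loop anchors and domain boundaries.

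A gene was counted as marked when a peak reached within 1 kb of its annotated start in both replicates. The strength of a peak is its fold enrichment over the control, as MACS2 gave it. The lists held between 37932 and 81164 peaks, and they give no read counts, so that the depth behind a peak is unknown. Median fold enrichment was 9.19 and 6.15 in the H3K4me3 replicates, so that fold values of this mark were not compared between replicates. The starts of all 12 fibroblast marker genes, such as COL1A1, PDGFRB and TWIST1, carried both histone marks. The 6 epithelial marker genes carried H3K4me3 without H3K27ac. None of the 4 endothelial, 4 blood, 3 muscle and 2 neural marker genes carried both marks. H3K27ac alone was found at the blood marker SPI1, with a fold enrichment of 12.4 and 17.0 in replicates 1 and 2, and at the muscle marker MYOG, with 7.06 and 5.26. In a bulk sample, a mark present in few cells and a weak mark in all cells cannot be told apart.

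H3K4me3 was found at the start of 44 of the 61 genes (72.1%), beside 68.9% of all protein-coding genes. H3K27ac was found at 38 (62.3%, beside 60.7%), and both marks at 35 (57.4%, beside 58.9%). These shares were close to the background. CTCF was found at 19 starts (31.1%), beside 17.9% of all protein-coding genes. Neither histone mark was found in either replicate at 12 starts (19.7%, beside 27.5%). H3K4me3 without H3K27ac was found at 7 starts (11.5%, beside 8.25%), and H3K27ac without H3K4me3 at 2 (3.28%, beside 1.45%). At the remaining 5 starts (8.20%, beside 3.87%) a histone mark was present in 1 replicate only. All these shares leave out 13 relatives that bear only a locus number, of which 12 had neither histone mark. Counting them would raise the share with neither mark and lower those with H3K4me3, H3K27ac or both. Among genes with a mark in both replicates, the replicates ranked the genes alike by fold enrichment (Spearman's rho 0.853 for the 44 genes with H3K4me3, 0.953 for the 38 with H3K27ac and 0.949 for the 19 with CTCF). These values are across genes, which share libraries and are not independent replicates.

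**Figure D1:**
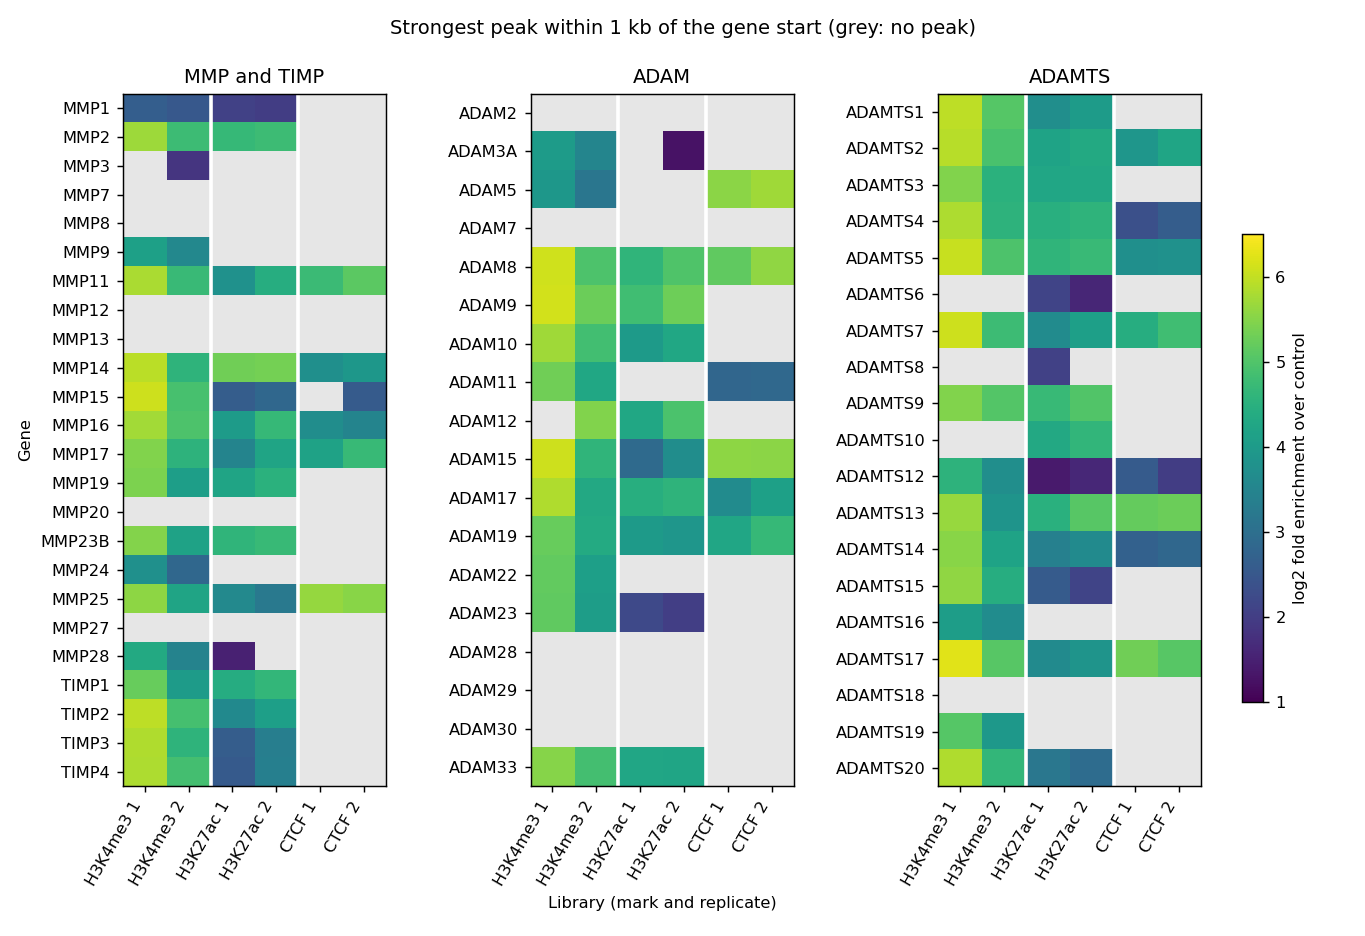
Fold enrichment over control (log2 colour scale) of the strongest peak within 1 kb of each gene start, for the 61 genes (rows) in the 6 libraries (columns, mark and replicate number). Grey means no peak: all 4 TIMP genes have both histone marks, 12 genes such as MMP7, ADAM2 and ADAMTS18 have neither, and CTCF is present at 19 starts in both replicates.

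By family, all 4 TIMP starts had both histone marks and none had CTCF. Of 19 ADAMTS genes, 15 had H3K4me3, 15 had H3K27ac and 13 had both. Of 18 ADAM genes, 12 had H3K4me3, 9 had H3K27ac and 8 had both. Of 20 MMP genes, 13 had H3K4me3, 10 had H3K27ac, and the same 10 had both. CTCF was at 5 MMP, 6 ADAM and 8 ADAMTS starts. Of the 19 genes with CTCF at the start, 17 had both histone marks and 2, ADAM5 and ADAM11, had H3K4me3 only. How many of all protein-coding genes with CTCF at the start have both marks was not computed, so 17 of 19 has no background beside it.

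**Figure D2:**
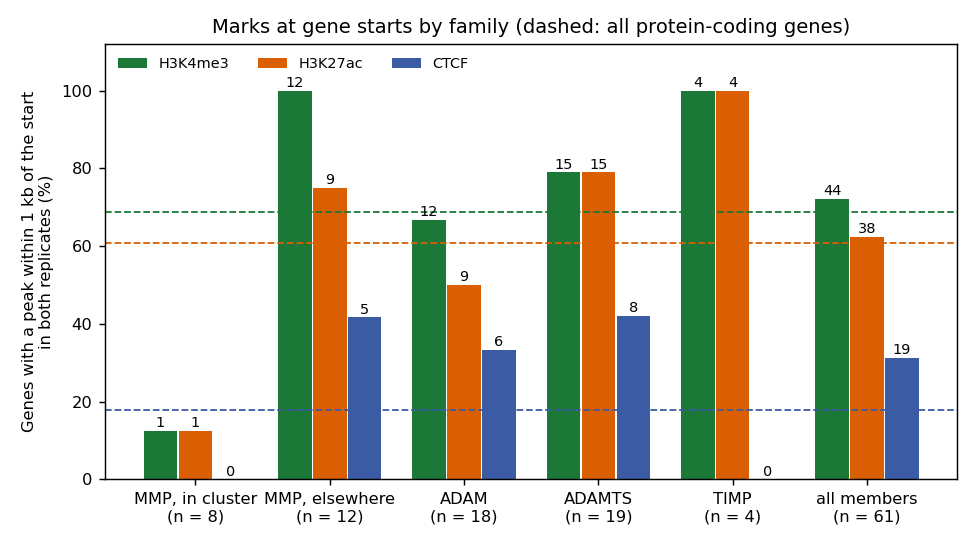
Share of genes (%) with a peak within 1 kb of the start in both replicates, by family, with the number of genes above each bar and dashed lines for all 19487 protein-coding genes. Only 1 of the 8 MMP genes of the chromosome 9 cluster has a histone mark in both replicates, while all 12 other MMP genes have H3K4me3 and 9 of them have H3K27ac.

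The sequence before the start was read next. In the 250 bases before the start, the median number of CpG dinucleotides was 4.5 in MMP, 15.5 in ADAM, 22 in ADAMTS and 15 in TIMP genes, beside 12 in 19484 protein-coding genes. Genes with both marks had a median of 19 CpG and those with neither a median of 3. This split by mark was not made for all protein-coding genes, so it cannot be called particular to the 61 genes. ADAMTS18, with 43 CpG, and ADAM30, with 18, were the unmarked genes above the median of all genes. Among the genes with both marks, ADAMTS9 had 0, ADAMTS4 and MMP19 had 2 each, and MMP1 and TIMP4 had 3 each. The 0 of ADAMTS9 belongs to the start of the gene record, 46209238. Its inner start 46207016, which 5 annotated transcripts share and which the histone peaks cover, had 21. The AP-1 heptamers TGACTCA and TGAGTCA, which are the same site read on either strand, occurred before 4 of the 61 starts (6.56%), beside 2.90% of all protein-coding genes. All 4 were MMP genes, namely MMP3, MMP9, MMP12 and MMP19. The TATA box TATAAA, read on the strand of the gene, lay within 60 bases of the start in MMP3 and MMP28 (3.28%, beside 2.08%). In the sequences shown next, of the 150 bases before the start of these AP-1 genes, capitals mark AP-1 heptamers and TATAAA on Sscrofa11.1.
MMP3, chr9:33453996-33454145, minus strand: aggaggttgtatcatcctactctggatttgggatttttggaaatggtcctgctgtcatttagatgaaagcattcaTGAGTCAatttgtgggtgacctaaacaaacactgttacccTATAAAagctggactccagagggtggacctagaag
MMP12, chr9:33483631-33483780, minus strand: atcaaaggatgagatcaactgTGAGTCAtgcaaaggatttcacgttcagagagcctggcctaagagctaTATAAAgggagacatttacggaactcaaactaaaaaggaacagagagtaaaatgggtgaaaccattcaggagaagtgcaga
MMP9, chr17:48179540-48179689, plus strand: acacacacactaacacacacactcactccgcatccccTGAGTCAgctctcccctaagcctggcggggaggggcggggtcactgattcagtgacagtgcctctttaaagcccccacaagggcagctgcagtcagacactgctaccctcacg
MMP19, chr5:21285944-21286093, minus strand: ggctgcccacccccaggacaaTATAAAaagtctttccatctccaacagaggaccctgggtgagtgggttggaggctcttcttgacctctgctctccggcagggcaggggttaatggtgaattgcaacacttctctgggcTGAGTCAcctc

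Positions are counted back from the start, and the base just before it is the first. The first base of the AP-1 heptamer stood at -75 in MMP3, -129 in MMP12, -113 in MMP9 and -11 in MMP19. In MMP3, TATAAA followed at -35. The same word stood at -81 in MMP12 and -129 in MMP19, outside the window of 60 bases. MMP9 and MMP19 fall outside the rule for sequences shown and were added after their matches were seen. The 4 genes with the heptamer differed in their marks: MMP19 had both, MMP9 had H3K4me3 only, MMP3 had H3K4me3 in 1 replicate, and MMP12 had none.

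**Figure D3:**
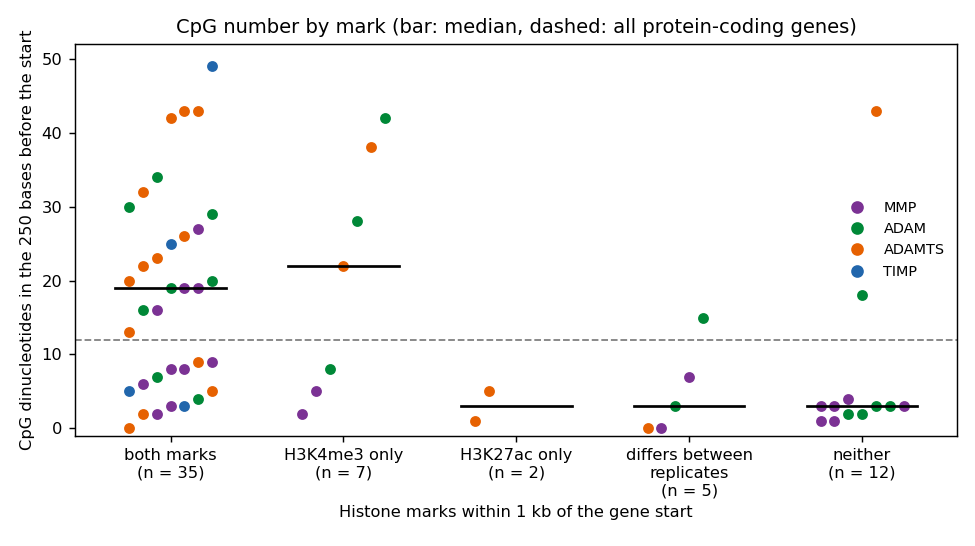
Number of CpG dinucleotides in the 250 bases before the start (vertical axis) for each of the 61 genes, by the histone marks at the start, with the median of each group as a bar and that of all protein-coding genes (12) as a dashed line. Genes with both marks spread from 0 to 49 CpG around a median of 19, and 10 of the 12 unmarked genes have 4 or fewer. The point at 0 is ADAMTS9 at its record start, and an inner start of this gene has 21.

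TIMP1, TIMP2, TIMP3 and TIMP4 encode the inhibitors. TIMP1, the inhibitor of many soluble MMPs, had the strongest acetylation of the 4, with an H3K27ac fold enrichment at the start of 21.2 and 24.9 in replicates 1 and 2. TIMP2, which also takes part in the activation of pro-MMP2, had 12.2 and 17.2. TIMP3, which binds to the matrix, had 6.18 and 10.2, and TIMP4 had 5.92 and 10.3. The order TIMP1, TIMP2 and then TIMP3 and TIMP4 was the same in both replicates, and the last 2 could not be separated, since their order switched between replicates. In H3K4me3, TIMP1 was the lowest, with a fold enrichment of 37.4 and 16.3. TIMP2 had 61.7 and 29.6, TIMP3 had 57.3 and 23.9, and TIMP4 had 56.8 and 28.9. The H3K4me3 peak was narrowest at TIMP4, with 1427 and 1433 bp, and between 3714 and 4657 bp at the others.

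The TIMP genes overlap other genes. TIMP1 (chrX:42103251-42106289) lies within SYN1, TIMP3 (chr5:12185816-12242599) within SYN3 and TIMP4 (chr13:68179803-68191199) within SYN2, each on the strand opposite to its host. The hosts encode synapsins, which are proteins of synaptic vesicles. None of the 3 host starts had H3K27ac. SYN1 had H3K4me3 with a fold enrichment of 8.74 and 5.18, SYN2 with 24.9 and 10.1, and SYN3 had neither mark. Each host start lay between 39.0 and 225 kb from the TIMP start inside it. TIMP2 (chr12:3254794-3300835) holds CEP295NL on the same strand, which was unmarked. Within TIMP2, the strongest acetylation lay not at the gene start but at inner transcript starts, 3283388 and 3286739, where H3K27ac reached 39.0 and 50.9. H3K4me3 at the first of these was 8.74 and 4.59, and absent at the other.

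The membrane-type MMPs, which are anchored in the cell membrane, had H3K4me3 at 6 of 6 starts, H3K27ac at 5 and CTCF at 4. Over all protein-coding genes these shares were 68.9%, 60.7% and 17.9%. H3K4me3 was not particular to this class, since all 12 MMP genes outside the chromosome 9 cluster had it. MMP14, the main cell surface activator of pro-MMP2, had an H3K27ac fold enrichment of 39.6 and 40.5, the highest at any of the 61 starts in both replicates. Its acetylated region at the start (chr7:76168110-76188970 in replicate 1) was 20861 and 21420 bp wide and spanned the gene, which is 11430 bp long. The fold enrichment of a peak is that of its summit, which lay 374 bp after the MMP14 start in replicate 1 and 15300 bp after it, beyond the end of the gene, in replicate 2. Such a width put MMP14 at a percentile of 99.51 and 99.55 among protein-coding genes with H3K27ac at the start. MMP16 had the widest H3K4me3 of the 61 genes, with 9545 and 9634 bp, and an H3K27ac fold enrichment of 16.3 and 25.7. The start of the uncharacterised LOC106510034 lay in the same peaks. MMP24 was the membrane-type gene without H3K27ac, and its H3K4me3, with 13.6 and 7.12, was above that of MMP1 alone among the 44 genes with this mark.

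The gelatinases were marked in different ways. MMP2 (chr6:30059247-30087031), the gelatinase made by many fibroblasts, had an H3K4me3 fold enrichment of 52.1 and 27.2, and an H3K27ac fold enrichment of 25.7 and 27.4. A further H3K27ac peak inside the gene, 8.73 and 8.64 kb after the start, reached 20.2 and 27.6 and overlapped 4 exons. MMP9 (chr17:48179690-48186782), the other gelatinase, had a weak H3K4me3 of 17.5 and 11.8 and its nearest H3K27ac peak was 12.0 kb away in both replicates. A CTCF peak of 20.2 and 20.5 lay 5348 and 5268 bp after its start. Both gelatinases thus carried H3K4me3 at the start, and of these MMP2 alone carried H3K27ac there.

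MMP23B had 24.3 and 26.0 of H3K27ac, MMP19 had 18.6 and 22.7, and MMP11, known as stromelysin-3, had 13.7 and 21.5. Together with MMP14, MMP2 and MMP16, these ranked high among the 10 MMP genes with H3K27ac at the start. The median of all protein-coding genes with H3K27ac at the start was 16.5 and 19.6. MMP11 and MMP16 were below it in replicate 1. MMP15 had a strong H3K4me3 of 67.5 and 29.8 but 6.12 and 7.17 of H3K27ac. MMP28 had H3K4me3 of 20.2 and 11.0, and an H3K27ac peak of 2.82 in replicate 1 only.

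The other MMP genes form a cluster on chromosome 9. MMP7, MMP20, MMP27, MMP8, MMP1, MMP3, MMP12 and MMP13 lie in this order on the minus strand between 33214590 and 33616700. They include the collagenases MMP1, MMP8 and MMP13, stromelysin-1 (MMP3), matrilysin (MMP7), macrophage elastase (MMP12) and enamelysin (MMP20). With 50 kb on both sides the region measured 502 kb. MMP1 was the single gene of the 8 with both marks in both replicates, and it lost both when the peaks of the replicates had to overlap by 50%. Its H3K4me3 was 6.26 and 5.71 and its H3K27ac 4.199 and 3.986, which put it below the 5th percentile of fold enrichment among protein-coding genes with a peak in each of the 4 histone libraries. MMP3 had H3K4me3 of 3.59 in replicate 2 only. The starts of MMP7, MMP8, MMP12, MMP13, MMP20 and MMP27 had no histone mark.

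Histone peaks in this region were weak. H3K27ac was sparser than on chromosome 9 as a whole in both replicates, and H3K4me3 in replicate 1 only. There were 4 and 9 H3K4me3 summits and 10 and 8 H3K27ac summits in replicates 1 and 2. Per 100 kb, this was 0.797 and 1.79 for H3K4me3, beside 1.43 and 1.75 on all of chromosome 9, and 1.99 and 1.59 for H3K27ac, beside 3.21 and 3.40. The strongest histone peak of any of the 4 libraries reached 6.43. It was an H3K4me3 peak of replicate 2, upstream of MMP13 with its summit at -7932 bp from the start. Near MMP1, an H3K27ac peak stood upstream, with its summit at -2173 and -1978 bp from the start and a fold enrichment of 4.73 and 2.28. Inside MMP13, which is 67.7 kb long with annotated starts spread over 55457 bp, H3K27ac summits stood in introns in both replicates, 41477 and 41550 bp after the start (3.10 and 2.59) and 35379 and 35094 bp after it (3.54 and 2.81).

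CTCF peaks in the region were as strong as elsewhere. There were 10 and 12 summits, or 1.99 and 2.39 per 100 kb, beside 1.66 and 1.83 on the chromosome, and their median fold enrichment was 21.1 and 18.8, beside 20.2 and 19.8. All 10 of replicate 1 overlapped a peak of replicate 2. The strongest lay inside MMP1, 5900 bp after its start in both replicates (chr9:33413958-33414948 in replicate 1), with 56.3 and 65.3, and its peak overlapped 1 exon. The next, of 47.3 and 56.7, lay between MMP20 and MMP27. No cluster gene had CTCF within 1 kb of its start. CTCF summits lay in both replicates in MMP7, in MMP20 and in MMP1, and between MMP8 and MMP1, MMP1 and MMP3, and MMP12 and MMP13.

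**Figure D4:**
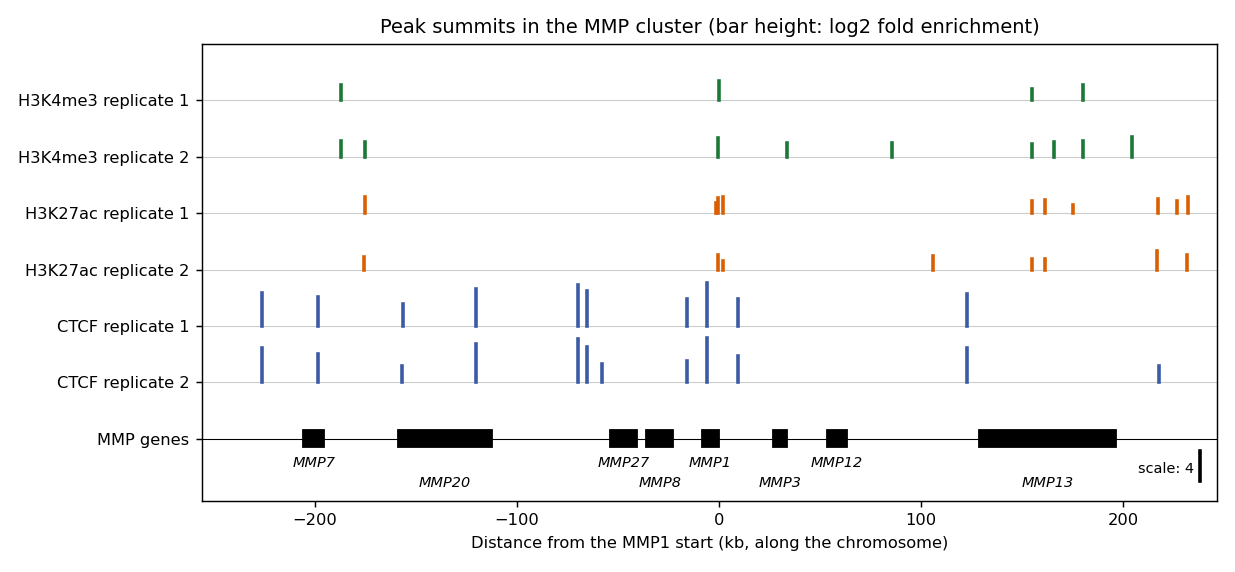
Peak summits of the 6 libraries across the MMP cluster, by distance along the chromosome from the MMP1 start (kb), with bar height as log2 fold enrichment (scale bar of 4 units) and the 8 MMP genes as black boxes. Histone summits are low and reach at most 6.43-fold, while CTCF summits recur at the same places in both replicates and reach 56.3 and 65.3-fold inside MMP1.

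ADAM genes were divided by whether the product keeps the zinc-binding site of an active protease. Of 10 genes with the site, 8 had H3K27ac and 7 had H3K4me3 at the start. Of the 6 without that site, 1 had H3K27ac and 3 had H3K4me3. ADAM3A and ADAM5, which were put in neither class, both had H3K4me3, and neither had H3K27ac in both replicates. Over all protein-coding genes, 60.7% had H3K27ac and 68.9% had H3K4me3, so that the H3K4me3 share of the genes with the site (70.0%) was that of the background. Genes described as ADAM20 or ADAM21, or as like them, belong to the class with the site but bear only a locus number. None is in these counts, and all had neither histone mark. Counting them would lower the shares of the genes with the site. ADAM18 and ADAM32, of the class without it, were left out likewise, with H3K4me3 only and with neither mark. ADAM9 had the highest H3K27ac of the family, with 28.1 and 39.0, in a peak that also covered the start of TM2D2, 218 bp away. ADAM8 had 24.2 and 31.8, and ADAM17, the main enzyme that releases tumour necrosis factor from the cell surface, had 21.8 and 23.8. ADAM10, which cleaves Notch and cadherins, had 16.1 and 19.4. H3K4me3 at these 4 starts ranged from 52.6 to 69.3 in replicate 1 and from 19.99 to 38.6 in replicate 2. Acetylated peaks at the ADAM17 start were 10312 and 10694 bp wide. Of the genes without the site, ADAM11 (39.6 and 19.5) and ADAM22 (36.0 and 17.1) had H3K4me3 and no H3K27ac at the start. ADAM23 had both marks, with H3K4me3 of 35.6 and 16.8 and a weak H3K27ac of 4.67 and 4.04.

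The ADAM genes without histone marks were ADAM2, ADAM7, ADAM28, ADAM29 and ADAM30. They came from both classes, ADAM28 and ADAM30 with the zinc-binding site and ADAM2, ADAM7 and ADAM29 without it. ADAM2, ADAM29, ADAM30 and ADAM5 had no H3K27ac summit in the gene or within 50 kb in either replicate. Of all protein-coding genes, 9.74% had none there either, so such a lack was not particular to these genes. ADAM5 (chr15:47343143-47376407), however, had CTCF at the start with 46.6 and 52.4, the strongest at any of the 61 starts in replicate 2, at a percentile of 97.0 and 96.6 among protein-coding genes with CTCF. A narrow H3K4me3 peak of 15.0 and 8.90 lay at the same place, with its summit at -72 and -172 bp from the start and that of CTCF at 32 and 36 bp. ADAM3A had a similar H3K4me3 of 16.1 and 11.3, without CTCF and with H3K27ac of 2.43 in replicate 2 only. ADAM28 had an unmarked start but an H3K27ac peak of 27.6 and 22.2 that overlapped 1 exon, 27.6 kb after the start in both replicates.

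At ADAM12 (chr14:135302188-135682144), the gene of meltrin alpha, the position of the annotated start decided the count. Its H3K4me3 peak was among the strongest, with 66.6 and 43.7, yet its edge lay 1009 bp from the start of the gene record in replicate 1 and 964 bp in replicate 2, so that the gene was counted as marked in replicate 2 only. The peak covered inner transcript starts at 135680419 and 135680427. The 250 bases before the record's start held 3 CpG, and those before the inner starts held 37 and 38. The sequences next, of 150 bases each on Sscrofa11.1, show this contrast beside TIMP2, which had the most CpG of the 61 genes (49 in 250 bases), and capitals mark CpG. The ADAM12 stretches were added after the values were seen.
TIMP2, chr12:3254644-3254793, plus strand: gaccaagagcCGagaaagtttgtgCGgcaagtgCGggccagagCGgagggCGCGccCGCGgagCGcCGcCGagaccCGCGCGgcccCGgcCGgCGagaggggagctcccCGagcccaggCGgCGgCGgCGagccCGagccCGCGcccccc
ADAM12 gene record, chr14:135682145-135682294, minus strand: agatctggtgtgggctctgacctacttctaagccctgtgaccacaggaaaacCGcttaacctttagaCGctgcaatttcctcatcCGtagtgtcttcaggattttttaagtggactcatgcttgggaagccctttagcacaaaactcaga
ADAM12 inner start, chr14:135680428-135680577, minus strand: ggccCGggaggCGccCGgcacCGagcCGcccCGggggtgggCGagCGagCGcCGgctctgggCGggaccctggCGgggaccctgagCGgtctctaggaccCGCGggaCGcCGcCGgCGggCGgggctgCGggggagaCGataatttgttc

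H3K27ac covered much of ADAM12. The peak over the start reached 19.4 and 31.0, with its summit at -4760 bp from the start in replicate 1 and at 2028 bp in replicate 2. Inside the gene, which is 380 kb long, there were 55 and 77 H3K27ac summits, and the peaks covered 30.7% and 35.2% of the gene. Counted with 50 kb on both sides, this was 15.6 summits per 100 kb as a mean of the replicates, the highest of the 61 genes and at the 99.0th percentile of all protein-coding genes. Of the summits of replicate 1, 50 overlapped a peak of replicate 2, and 56 of those of replicate 2 overlapped one of replicate 1. In replicate 1, 53 of the 55 and in replicate 2, 75 of the 77 lay more than 5 kb from any annotated transcript start. The strongest of these were intronic, with 22.4 in replicate 1 and 24.0 in replicate 2, at 316 and 131 kb after the start. A peak near the former also stood in replicate 2, with 22.2. H3K4me3 had 13 summits in each replicate and CTCF 8 and 7. The strongest CTCF, of 35.3 and 45.3, lay 3108 and 3121 bp after the start.

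**Figure D5:**
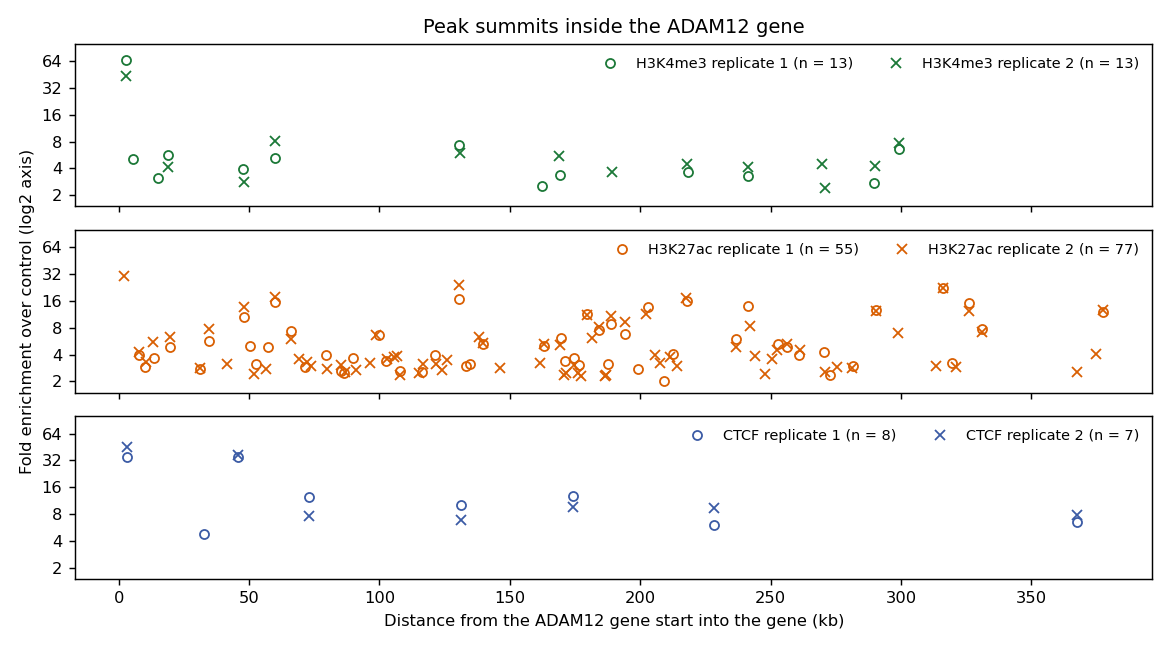
Peak summits inside ADAM12 by distance from the gene start (kb) and fold enrichment over control (log2 axis), with circles for replicate 1 and crosses for replicate 2. H3K4me3 has 1 strong peak near the start (66.6 and 43.7) and weak ones after it, while H3K27ac summits, 55 and 77 in number, are spread over the whole gene.

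ADAMTS genes were the longest, with a median length of 164 kb. The aggrecanases, which cut the proteoglycan aggrecan and its relatives, had both histone marks at 6 of 7 starts. ADAMTS9 had 26.1 and 32.3 of H3K27ac, ADAMTS5 had 24.3 and 26.4, ADAMTS4 had 22.2 and 24.0, and ADAMTS1 had 13.2 and 16.2. ADAMTS15 and ADAMTS20 were lower, with 5.99 and 4.35, and 9.07 and 7.67. ADAMTS8, which lies head to head with ADAMTS15 at 14.45 kb between the starts, had H3K27ac of 4.18 within the window in replicate 1 only. In replicate 2 a peak of 5.60 ended 1044 bp from the start, just outside the window, and H3K4me3 of 41.2 and 17.5 stood 1347 and 2213 bp from it. Within 5 kb the gene had both marks in both replicates. H3K4me3 was wide at ADAMTS5 (6503 and 6646 bp), ADAMTS9 (6343 and 6733 bp) and ADAMTS1 (5388 and 6214 bp). ADAMTS1 and ADAMTS5 are neighbours on chromosome 13, 67.1 kb apart, and 1 H3K4me3 and 2 H3K27ac summits stood between them in each replicate.

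The procollagen N-proteinases ADAMTS2, ADAMTS3 and ADAMTS14, which trim the amino-terminal propeptide of fibrillar collagens, had both marks at 3 of 3 starts. At the ADAMTS2 start H3K27ac was 18.1 and 20.3, at ADAMTS3 19.2 and 19.7, and at ADAMTS14 10.6 and 12.4. The strongest H3K27ac peak of ADAMTS2 was not at its start but in an intron, 87.7 kb after it (chr2:79268434-79272603 in replicate 1). It reached 41.9 and 49.5, which was above 99.7% of all H3K27ac peaks in each replicate. ADAMTS17 also had a strong intronic peak, of 37.6 and 37.2, 354 kb after its start (chr1:138660609-138667158 in replicate 2).

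Of the other ADAMTS genes, ADAMTS13, which cuts von Willebrand factor, had H3K27ac of 22.5 and 33.7 in a peak shared with the start of REXO4, 58 bp away. ADAMTS16 and ADAMTS19 had H3K4me3 without H3K27ac, with 16.7 and 12.8, and 33.2 and 15.2. Within ADAMTS16, intronic H3K27ac reached 24.7 and 31.3, at 144 and 140 kb from the unacetylated start. ADAMTS6 and ADAMTS10 had H3K27ac without H3K4me3. At ADAMTS10, H3K27ac of 19.95 and 24.5 reached the window from a peak of 7120 and 7555 bp with its summit at -3660 and -3657 bp from the start, and H3K4me3 of 41.9 and 15.4 stopped 1036 and 1055 bp before the start, just outside the window. The peak of H3K27ac covered another start, of LOC110259348. ADAMTS6 had 4.37 and 3.02 at its start, and the nearest H3K4me3 was 4.68 and 4.66 kb away. With a −log10 q-value of at least 5, ADAMTS6 no longer counted as having H3K27ac, and neither did ADAMTS12. ADAMTS18 was the single ADAMTS gene with neither mark, and the H3K4me3 peak nearest to its start was 192 kb from it in both replicates. The 50 kb flanks of the gene, which is 164 kb long, held 2 and 3 H3K4me3 summits.

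H3K4me3, H3K27ac or both at the starts of 7 genes lay in a peak that also covered the start of another gene. The share of such genes among all protein-coding genes was not computed, so this number has no background beside it. The 7 genes were MMP16, ADAM9, ADAMTS1, ADAMTS4, ADAMTS9, ADAMTS10 and ADAMTS13. Which of the overlapping genes carries the mark cannot be told apart from peak lists.

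CTCF at the starts was strongest, besides ADAM5, at MMP25 (49.5 and 46.3), ADAM15 (47.2 and 46.4), ADAM8 (35.8 and 48.4), ADAMTS17 (39.3 and 33.8), ADAMTS13 (37.0 and 38.3) and MMP11 (27.04 and 34.4). MMP25, a leukocyte membrane-type MMP, also had the densest CTCF in the gene and its flanks, with 12.3 summits per 100 kb as a mean of the replicates. At ADAMTS5 the CTCF peak was 2678 and 2941 bp wide, at a percentile of 99.9 among protein-coding genes with CTCF in both replicates. The weakest were ADAMTS12 (5.93 and 3.97) and ADAMTS4 (5.07 and 6.15). MMP15 had CTCF of 6.002 in replicate 2 only.

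Beyond the starts, the density of summits was compared with that of all protein-coding genes. The median for H3K27ac was 5.39 summits per 100 kb of gene and 50 kb flanks, beside 4.44, and for CTCF it was 2.87 beside 2.69. For H3K4me3 it was 2.47 beside 2.78, with 2.25 beside 2.68 in replicate 1 and the same value of 2.86 for both in replicate 2. The range was wide, from 0 to 15.6 for H3K27ac. After ADAM12, the densest genes were ADAMTS4 with 13.8, MMP2 with 13.3, TIMP2 with 12.3 and ADAM19 with 11.8. ADAM19, known as meltrin beta, had 10.03 and 13.5 in the replicates, and at its start it had H3K27ac of 15.9 and 14.9 and H3K4me3 of 37.6 and 20.6. The median was 2.20 in the cluster and 7.07 in the other MMP genes. Of the H3K27ac summits inside the 61 genes, 263 and 315 in number, 80.2% and 82.9% lay more than 5 kb from any annotated transcript start, beside 68.7% and 69.2% in all protein-coding genes. The 61 genes had a median length of 44.9 kb beside 20.7 kb, and the part of length in this share was not tested. In the 15 genes of 100 kb or more, the median H3K27ac density inside the gene was 3.38 and 3.54 per 100 kb, beside 2.61 and 2.75 in the 2876 protein-coding genes of that length. An AP-1 heptamer stood within 150 bp of 6.16% and 6.51% of the H3K27ac summits far from a start, beside 7.59% and 7.37% in all protein-coding genes.

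Other genes of matrix proteolysis were counted in the same way. Of 32 such genes, among them plasminogen activators, cathepsins, proprotein convertases and BMP1, 24 had H3K4me3, 26 had H3K27ac, 22 had both, 6 had CTCF and 3 had neither histone mark. Over all protein-coding genes these shares were 68.9%, 60.7%, 58.9%, 17.9% and 27.5%. A further 13 genes that the annotation describes as relatives of the 61 bear only a locus number and were not counted. Of these, 12 had neither mark (beside 27.5% of all protein-coding genes), and the gene for the ADAM18 product had H3K4me3 only.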

How the data were processed

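ChIP-seq peaks of H3K4me3, H3K27ac and CTCF in PEFs were analysed, with 2 replicates each, assigned from the sample labels. The authors aligned the reads with Bowtie2, discarded duplicates and fragments without a unique place, and ran MACS2 on each library, and the submitters' processing notes name Sscrofa11.1. For each peak the deposited lists give an integer score (not used), the fold enrichment (a ratio over control) and the p-value and q-value as −log10. The methods state a q-value of 0.01, but the highest q-value was between 0.0432 and 0.0499 in the 6 libraries, and the lists were used as deposited. Peaks on unplaced scaffolds were left out, and input libraries were not analysed here.

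Gene starts, exons and sequence came from RefSeq on Sscrofa11.1, whose chromosome names match the lists. A start is the 5′ end of the gene record. Peaks counted at a start when they overlapped it or the 1 kb on either side by at least 1 bp, and inside genes and flanks by summit. Computation used Python 3.11.15 and NumPy 2.4.6, and the counting of peaks in windows was tested on simulated data. With 1 cell population and 2 replicates per mark, no test was made, and counts stand beside those of all protein-coding genes where these were computed. As alternatives, the −log10 q-value had to reach 5, and other windows and flanks, summits, all transcript starts, 50% overlap and each replicate alone were used.

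The genes, lists and named genes were chosen with earlier results of these data known. Values per replicate were given for the TIMP genes, the MMP cluster, MMP2, MMP14, ADAM10, ADAM12, ADAM17, ADAMTS1, ADAMTS2 and ADAMTS5, the 4 genes per family with the highest mean H3K27ac fold enrichment at the start, the 5 with the widest H3K4me3 there, those with 1 histone mark only, and the 5 with the densest H3K27ac. Other genes with values, the intragenic peaks and the search for AP-1 far from starts were chosen after the values were seen.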

Additional observations from a re-analysis of the deposited data

How the results depend on the processing

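Of 58 alternatives, 41 left the value within 1.5 times the count or within 1 SD of the replicates. These values are counts and medians, which have no direction of their own, but their side of the background could change. The shares with H3K4me3 and with H3K27ac were above the background in the main count. With the summit itself within 1 kb they were below it, at 31 genes (50.8%, beside 52.2%) and 26 genes (42.6%, beside 51.2%). At any transcript start, H3K27ac was also below it, at 38 genes (62.3%, beside 63.7%). For the densities and the cluster, the values are given here without those of all genes or of the chromosome under the same setting. With the summit itself within 1 kb, genes with both marks fell to 22 from 35 (36.1%, beside 41.7% of all protein-coding genes), without MMP2, MMP14 and MMP16 among others. Within 5 kb, genes with CTCF rose to 31 from 19 (50.8%, beside 35.0% of all protein-coding genes). The median H3K27ac density of 5.39 became 3.98 with a −log10 q-value of at least 5, 5.16 with flanks of 20 kb and 4.99 with 100 kb. The CTCF density of 2.87 became 2.72, 2.35 and 2.48, and that of H3K4me3 fell from 2.47 to 1.84 and, with 100 kb, 2.02. In the MMP cluster, H3K27ac summits fell from a mean of 9 to 4 with the stricter q-value and 4 with 50% overlap, and H3K4me3 from 6.5 to 4 when shared by 1 bp and 2 with 50% overlap. With 1 replicate left out, the H3K27ac density ranged from 5.28 to 5.39, the CTCF density from 2.72 to 2.90, that of H3K4me3 from 2.25 to 2.86, and H3K4me3 summits in the cluster from 4 without replicate 2 to 9 without replicate 1. ADAMTS6 and ADAMTS12 lost H3K27ac with the stricter q-value, and MMP1 lost both marks when 50% overlap between replicates was required. The cause of the other changes was not tested. No paired analysis was possible because no result comes from a test.

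A start rests on the RefSeq gene record. Peak lists give no reads, so the absence of a peak says only that none passed the caller, and no interval can be given.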
